A study of Homo sapiens
Mus musculus with 17 samples.

Results

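This account follows 40 human genes of mitosis and DNA replication in bladder tumour xenografts, read from the human table of 23368 gene symbols. The 40 were listed by name: 27 genes of the G2/M phases, 9 of S phase (the helicase genes MCM2 to MCM7 with PCNA, RRM2 and TYMS) and 4 regulators of the step into S phase (CCNE1, CCNE2, CCND1 and E2F1). These members were chosen with earlier results of these data known, so counts over them are descriptions and not tests. All 40 were present and all 40 passed the expression filter (mean normalized count of 10 or more), as did 14533 human genes in total.

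The study asked how nintedanib and alpelisib act together on tumours grown from VM-CUB-1, a line of human bladder cancer cells whose xenografts the series calls resistant to nintedanib. Every tumour grew in an Hsd:Athymic Nude-Foxn1nu mouse, a host without a thymus, and was taken after 7 days of treatment. Combination tumours (n = 4) received alpelisib at 25 mg/kg and nintedanib at 40 mg/kg, alpelisib tumours (n = 4) alpelisib alone at 25 mg/kg, and nintedanib tumours (n = 5) nintedanib alone at 40 mg/kg. Vehicle tumours (n = 4) received 0.5% methylcellulose with 0.1% Tween80. All 17 tumours thus carry the same 1 cell line. Alpelisib blocks the alpha form of the lipid kinase PI3K, and nintedanib blocks receptor kinases for the growth factors VEGF, FGF and PDGF. Sample titles call 3 nintedanib tumours responders and 2 non-responders, whereas the series description gives the opposite numbers, so those names were taken from the titles and used with that doubt. Whether each tumour had its own mouse is not in the labels, so p-values measure only the spread between these tumours, which may be partly technical. The fit gave responders and non-responders a mean each. The spread behind all p-values, also those of nintedanib against vehicle, therefore leaves out the difference between these doubtful groups.

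Human reads per library, recovered from the deposited values, ranged from 7429753 to 25654879 with a median of 20312801. The fewest were in Vehicle 3, where Rn45s, the ribosomal RNA precursor, and Lars2 also took 72.9% of the mouse values, against 1.73% to 60.1% in the other 16 libraries. Epithelial markers were abundant in the human table: KRT5, a basal keratin, averaged 137100 ± 25910 normalized counts (SD) in combination and 68650 ± 20640 in vehicle tumours (n = 4 each). All 10 epithelial markers passed the filter, and with the combination 8 had a positive and 2 a negative change, EPCAM with -0.75 ± 0.30 and CDH1 with -0.53 ± 0.23 (log2 ± standard error, limma adjusted p = 0.202 and 0.225). Of 14 markers of host vessels, stroma and leukocytes, 4 did not (PECAM1, CDH5, PDGFRB and PTPRC), and CDH5 was at 0 in all combination and vehicle libraries. COL1A1, a collagen of connective tissue, averaged 4165 ± 1813 in combination and 2832 ± 1995 in vehicle tumours in that table, and how much of it came from mouse reads was not tested.

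A dividing cell first licenses its replication origins with the MCM helicase under the control of cyclin D, cyclin E and E2F factors, then copies its DNA with the clamp PCNA and the nucleotide enzymes RRM2 and TYMS. Cyclin A and cyclin B with the kinase CDK1 then drive it into mitosis, where Aurora and Polo-like kinases and kinesin motors build the spindle. Checkpoint kinases hold the cell until chromosomes are attached, and the anaphase-promoting complex ends mitosis. Transcripts of the mitotic genes peak late in the cycle and are low in resting cells, so they are widely read as a measure of proliferation in tumours. In bulk tumours, fewer cells in mitosis and less RNA of these genes per cell cannot be told apart.

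Most G2/M genes had lower mean values than vehicle in each of the 3 treatments, while S-phase genes had changes of both signs. The median log2 change of the 27 G2/M genes was -0.58 with the combination, -0.33 with alpelisib and -0.54 with nintedanib. For the 9 S-phase genes it was -0.07, 0.17 and -0.04, and for all 14533 tested genes -0.03, 0.02 and 0.00 in the same order. By limma (Benjamini-Hochberg adjusted p under 0.05) 0 members passed in each of the 7 comparisons made, whereas DESeq2 on recovered reads called 4 members lower with the combination. The 3 treatments share the 4 vehicle tumours, so the 3 comparisons are not independent of each other.

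**Figure D1:**
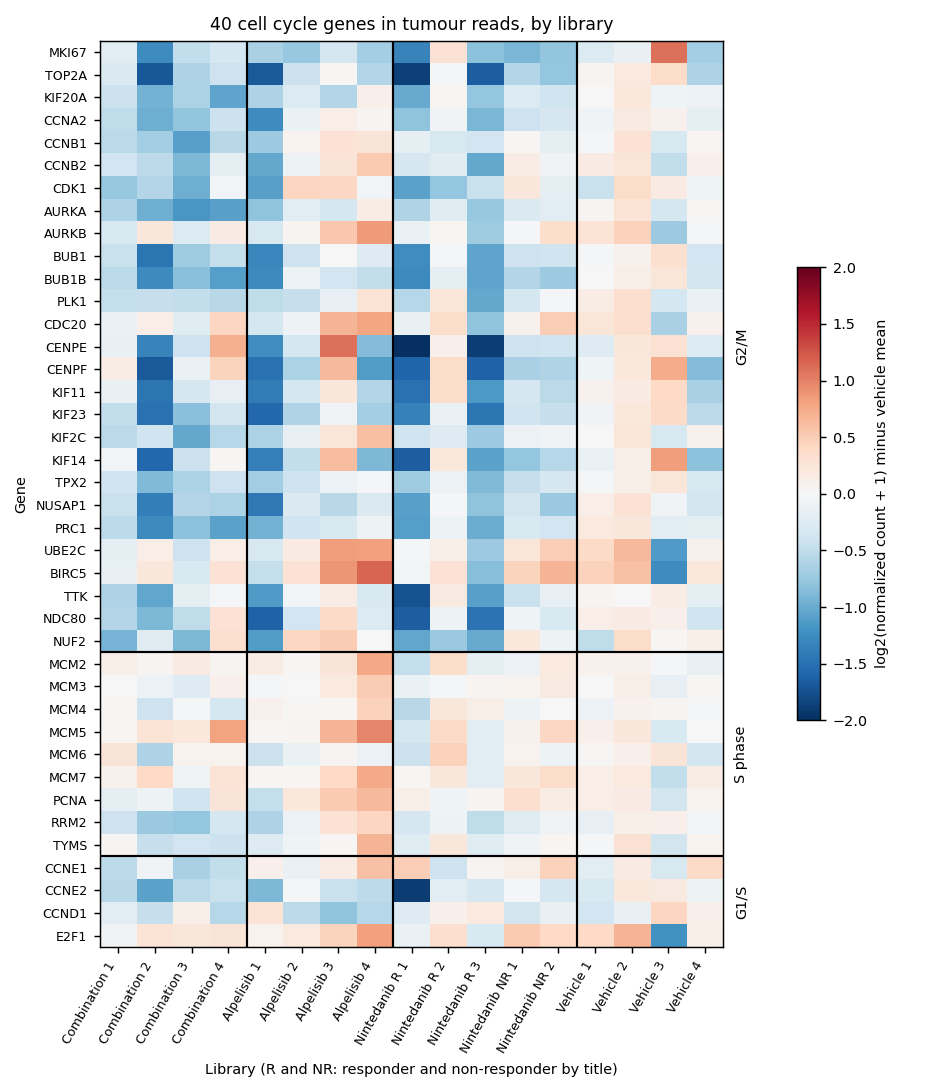
Each cell gives log2(normalized count + 1) of 1 gene (rows) in 1 library (columns) minus the mean of the 4 vehicle libraries, from -2 (blue) to 2 (red). Lines divide the 27 G2/M, 9 S-phase and 4 G1/S genes and the treatments. Blue fills most G2/M rows of Combination 2, Alpelisib 1 and nintedanib responders 1 and 3, while the S-phase rows are pale in most libraries.

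The mean over the 27 G2/M genes in each library shows how alike the tumours of a treatment were. Relative to the vehicle mean, the log2 value was -0.395, -0.882, -0.62 and -0.248 in Combination 1 to 4. It was -1.002, -0.21, 0.186 and -0.059 in Alpelisib 1 to 4. In nintedanib responders 1 to 3 it was -0.986, -0.03 and -1.005, and in nintedanib non-responders 1 and 2 it was -0.253 and -0.25, against 0.016, 0.241, -0.018 and -0.239 in Vehicle 1 to 4. Every combination tumour lay below every vehicle tumour, by a narrow margin for Combination 4. Alpelisib 1 was low and the other 3 alpelisib tumours lay within the vehicle range. Among nintedanib tumours the 2 lowest and the highest are all called responders.

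The same mean over the 9 S-phase genes ran from -0.193 to 0.045 in combination tumours, from -0.169 to 0.568 in alpelisib tumours and from -0.261 to 0.181 in nintedanib tumours, against -0.143 to 0.156 in vehicle tumours, so each treated group overlapped with vehicle. Alpelisib 4 was the highest of the 17 libraries in 8 of the 9 S-phase genes. The difference between both means in a library, G2/M minus S phase, averaged -0.46 ± 0.17 (SD) in combination, -0.44 ± 0.35 in alpelisib and -0.49 ± 0.28 in nintedanib tumours, against 0.00 ± 0.15 in vehicle tumours. Its range was -0.69 to -0.293 in combination tumours and -0.85 to -0.212 in nintedanib tumours, against -0.206 to 0.124 in vehicle tumours. These groups did not overlap, though the nintedanib range ends just below the vehicle one. In alpelisib tumours the range was -0.833 to -0.088, which overlaps with vehicle. These library means describe the listed genes and were not tested.

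**Figure D2:**
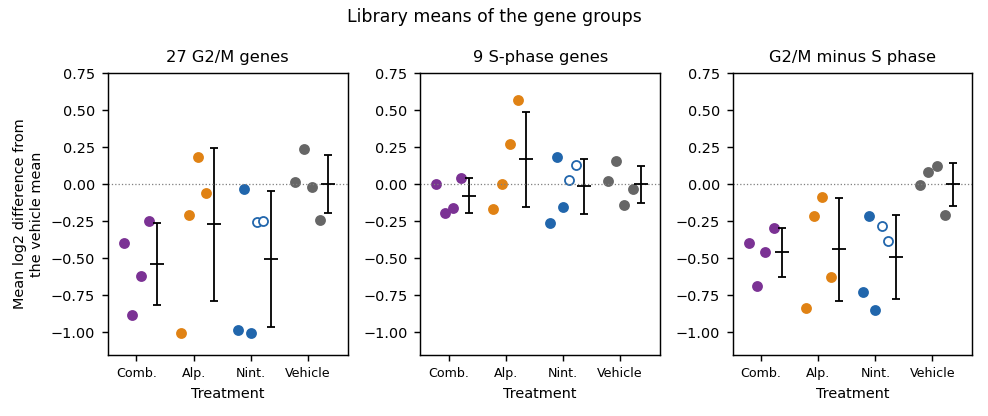
Points are libraries, placed by the mean log2(normalized count + 1) of the gene group relative to the vehicle mean (vertical axis), for G2/M genes, S-phase genes and their difference. Open symbols are the nintedanib tumours called non-responders, and bars give the mean ± SD of the treatment group. In the right panel all combination points lie between -0.69 and -0.293, below all vehicle points.

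The combination against vehicle asks what both drugs together did to these genes. Of the 27 G2/M genes, 25 had a negative change (92.6%, against 52.8% of all tested genes), from -0.96 to 0.05. At an unadjusted p under 0.05, 11 were lower (40.7%, against 6.89% of all tested genes) and 0 were higher (0%, against 11.2% of all tested genes). For 11 genes (40.7%, against 5.31% of all tested genes) all 4 combination tumours lay below all 4 vehicle tumours. By limma 0 members passed over all genes, where 52 genes did (0.358%, 46 higher and 6 lower). With recovered reads, the members that passed numbered 0 by edgeR, 0 by limma-voom and 4 by DESeq2. The 4 were AURKA, BUB1B, CCNB1 and PRC1, all lower, where DESeq2 called 0.936% of its 14528 genes lower.

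Values are given below in the order of replicate numbers, with nintedanib responders 1 to 3 before non-responders 1 and 2, and each log2 change is followed by its standard error. AURKA encodes the Aurora kinase of centrosomes and spindle poles. It had 769, 599, 523 and 553 normalized counts in combination tumours, 672, 1001, 915 and 1299 in alpelisib tumours and 770.1, 987, 691, 962 and 1012 in nintedanib tumours, against 1224, 1417, 919 and 1190.4 in vehicle tumours. All combination values lay below all vehicle values, and the change of -0.96 ± 0.21 (adjusted p = 0.0600) was the one nearest to the threshold among the 40 genes. Leaving out single libraries gave adjusted p-values of 0.0418 (without Combination 1) to 0.211, and 0.048 without nintedanib responder 3. For alpelisib the change was -0.31 ± 0.21 (adjusted p = 0.395) and for nintedanib -0.42 ± 0.20 (adjusted p = 0.619), and both groups overlapped with vehicle.

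AURKB, the Aurora kinase of centromeres and the midbody, had a change of -0.05 ± 0.28 with the combination, 0.28 ± 0.28 with alpelisib and -0.10 ± 0.27 with nintedanib. PLK1, the Polo-like kinase of mitotic entry, had 669.8, 683, 666 and 640.5 normalized counts in combination tumours, 662, 683, 836 and 1134 in alpelisib tumours and 628, 1112, 462, 732 and 926 in nintedanib tumours, against 1038, 1177, 736 and 856 in vehicle tumours. Its combination values lay within a narrow band under the vehicle range, with a change of -0.49 ± 0.24 (adjusted p = 0.293). It was -0.21 ± 0.24 (adjusted p = 0.628) with alpelisib and -0.34 ± 0.23 (adjusted p = 0.621) with nintedanib, where the libraries spread on both sides of the lowest vehicle value.

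Of the checkpoint kinases, BUB1B had 404, 242, 327 and 272 normalized counts in combination tumours, 242, 542, 448 and 416 in alpelisib tumours and 241, 514, 281, 391 and 354 in nintedanib tumours, against 589, 638, 692 and 453 in vehicle tumours. The combination values were all under the vehicle values, and those of the other treatments overlapped with them. The changes were -0.94 ± 0.27 (adjusted p = 0.112) with the combination, -0.56 ± 0.27 (adjusted p = 0.268) with alpelisib and -0.77 ± 0.25 (adjusted p = 0.619) with nintedanib. The related kinase gene BUB1 had -0.77 ± 0.31, -0.50 ± 0.31 and -0.63 ± 0.29 in the same order, and its combination tumours also lay below vehicle. TTK, the kinase that starts the checkpoint at unattached kinetochores, had -0.47 ± 0.34, -0.33 ± 0.34 and -0.65 ± 0.33, with overlapping groups.

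Cyclins and their kinase come next. CCNB1, the cyclin B gene of mitotic entry, had 1510.1, 1352, 1029 and 1490.2 normalized counts in combination tumours, 1318, 2297, 2659 and 2599.5 in alpelisib tumours and 1932, 1749.6, 1673, 2219.8 and 1907 in nintedanib tumours, against 2160.5, 2676, 1749 and 2255 in vehicle tumours. Combination tumours lay below vehicle and below nintedanib tumours, while 3 of 4 alpelisib tumours were within the vehicle range. The changes were -0.72 ± 0.22 (adjusted p = 0.125) with the combination, -0.03 ± 0.22 (adjusted p = 0.946) with alpelisib and -0.21 ± 0.21 (adjusted p = 0.689) with nintedanib. CDK1, the partner kinase of the A and B cyclins, had 508, 572, 439 and 826 normalized counts in combination tumours, 406, 1165, 1148 and 832 in alpelisib tumours and 409.7, 501, 634, 1012 and 755 in nintedanib tumours, against 629.6, 1110.1, 965 and 814 in vehicle tumours. Groups overlapped throughout, and the changes were -0.59 ± 0.30 (adjusted p = 0.303), -0.07 ± 0.30 (adjusted p = 0.907) and -0.45 ± 0.28 (adjusted p = 0.619). CCNA2, the cyclin A gene of S and G2 phase, was below vehicle in all 4 combination tumours with a change of -0.67 ± 0.27, while CCNB2, a second cyclin B gene, had -0.50 ± 0.29 and overlapped with it.

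**Figure D3:**
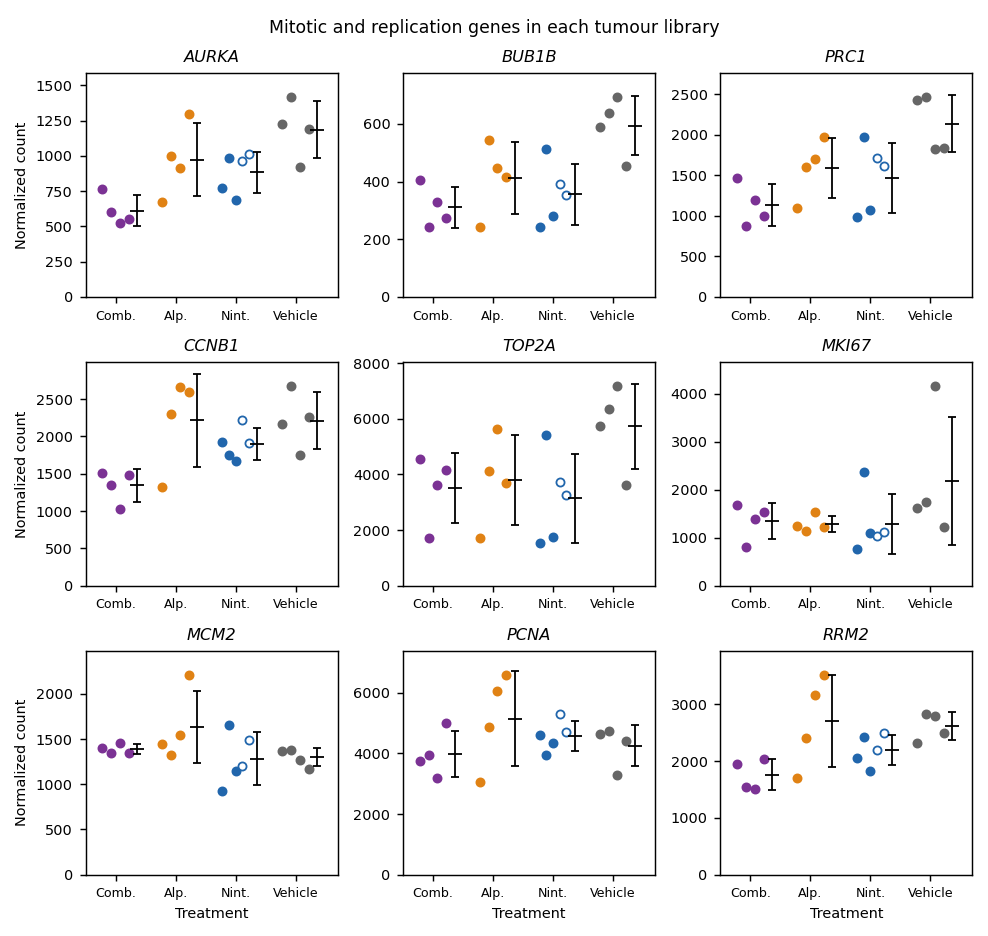
Normalized counts (vertical axes from 0) of 9 genes in each library by treatment, with open symbols for nintedanib tumours called non-responders and bars for mean ± SD. The combination points of AURKA, BUB1B, PRC1, CCNB1 and RRM2 lie below all vehicle points, while those of TOP2A, MKI67, MCM2 and PCNA overlap with vehicle.

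The genes of spindle proteins follow. PRC1, which bundles the microtubules of the central spindle, had 1466, 879, 1197 and 1004 normalized counts in combination tumours, 1092, 1598, 1703 and 1976 in alpelisib tumours and 980.4, 1975, 1067, 1719 and 1616 in nintedanib tumours, against 2424, 2463, 1819.5 and 1839.8 in vehicle tumours. Combination tumours were all below vehicle, and the changes were -0.92 ± 0.24 (adjusted p = 0.0984) with the combination, -0.44 ± 0.24 (adjusted p = 0.309) with alpelisib and -0.58 ± 0.23 (adjusted p = 0.619) with nintedanib. KIF20A, a kinesin of the central spindle and of cytokinesis, had 667, 462, 575 and 430.1 normalized counts in combination tumours, 586, 736, 598 and 958 in alpelisib tumours and 446, 920.1, 524, 742 and 681 in nintedanib tumours, against 886, 1039, 845 and 822 in vehicle tumours. It too had no combination value as high as the lowest vehicle value, and a change of -0.77 ± 0.23 (adjusted p = 0.121). With alpelisib it was -0.34 ± 0.23 and with nintedanib -0.48 ± 0.22.

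TPX2, the activator of Aurora A on the spindle, had 1523, 1083, 1292 and 1507 normalized counts in combination tumours, 1228, 1507, 1839 and 1963 in alpelisib tumours and 1218, 1834, 1079.8, 1448 and 1581 in nintedanib tumours, against 1941, 2163, 2365 and 1607 in vehicle tumours. Its changes were -0.58 ± 0.21 (adjusted p = 0.168) with the combination, where groups did not overlap, -0.31 ± 0.21 (adjusted p = 0.385) with alpelisib and -0.51 ± 0.20 (adjusted p = 0.619) with nintedanib. NUSAP1, which ties spindle microtubules to chromatin, had 959, 497, 867 and 839 normalized counts in combination tumours, 482, 1066, 882 and 1069.9 in alpelisib tumours and 612, 1282, 749, 1011 and 778 in nintedanib tumours, against 1427, 1598, 1246 and 1011 in vehicle tumours. Combination tumours lay below vehicle, Alpelisib 1 stood lowest, and the changes were -0.76 ± 0.29 (adjusted p = 0.180), -0.64 ± 0.29 (adjusted p = 0.251) and -0.60 ± 0.27 (adjusted p = 0.619). KIF23, a kinesin of the central spindle that partners RACGAP1, had 548, 273, 433 and 600 normalized counts in combination tumours, 261, 510.5, 737 and 481 in alpelisib tumours and 303, 702, 283, 584 and 559 in nintedanib tumours, against 737, 895, 1003 and 538 in vehicle tumours. Combination 1 and Combination 4 exceeded Vehicle 4, so groups overlapped, and the changes were -0.80 ± 0.34 (adjusted p = 0.224), -0.73 ± 0.34 (adjusted p = 0.261) and -0.76 ± 0.32 (adjusted p = 0.619).

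The other kinesin genes differed in spread. KIF2C, a microtubule depolymerase of centromeres, had -0.63 ± 0.23 with the combination, where all 4 tumours lay below vehicle, 0.01 ± 0.23 with alpelisib and -0.31 ± 0.22 with nintedanib. KIF11, the motor that separates spindle poles, had -0.53 ± 0.40, -0.53 ± 0.40 and -0.63 ± 0.38, KIF14, a kinesin of cytokinesis, -0.50 ± 0.46, -0.53 ± 0.46 and -0.77 ± 0.44, and the kinetochore motor CENPE -0.30 ± 0.51, -0.34 ± 0.51 and -0.95 ± 0.48. The kinetochore genes CENPF, NDC80 and NUF2 had -0.31 ± 0.52, -0.42 ± 0.38 and -0.44 ± 0.33 with the combination. For these 6 genes the treated and vehicle groups overlapped in each treatment.

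MKI67, which encodes the proliferation marker Ki-67 of the chromosome surface, had 1686, 811, 1379.8 and 1527 normalized counts in combination tumours, 1238, 1145, 1538 and 1219 in alpelisib tumours and 769, 2369, 1102, 1027 and 1127 in nintedanib tumours, against 1613, 1754, 4159 and 1213 in vehicle tumours. Vehicle 3 held the highest value of the 17, and the groups overlapped. The changes were -0.58 ± 0.35 (adjusted p = 0.397) with the combination, -0.61 ± 0.35 (adjusted p = 0.334) with alpelisib and -0.71 ± 0.33 (adjusted p = 0.619) with nintedanib. Without Vehicle 3 they were -0.21, -0.24 and -0.35. TOP2A, the topoisomerase that untangles replicated chromosomes, had 4559.7, 1718, 3606 and 4171 normalized counts in combination tumours, 1726, 4112, 5638 and 3688 in alpelisib tumours and 1529, 5421, 1769, 3719.9 and 3248 in nintedanib tumours, against 5748, 6364, 7179.7 and 3623 in vehicle tumours. Its lowest values were in nintedanib responder 1, Combination 2, Alpelisib 1 and nintedanib responder 3, and its changes were -0.75 ± 0.41 (adjusted p = 0.337), -0.67 ± 0.41 (adjusted p = 0.351) and -0.98 ± 0.39 (adjusted p = 0.619). The combination change was -0.44 without Combination 2 and the alpelisib change -0.33 without Alpelisib 1.

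In 4 G2/M genes the combination change was close to 0 with all libraries in the fit. CDC20, an activator of the anaphase-promoting complex, had 0.05 ± 0.30, UBE2C, a ubiquitin-conjugating enzyme of that complex, -0.08 ± 0.33, BIRC5 (survivin), a partner of Aurora B, 0.01 ± 0.38, and AURKB -0.05 ± 0.28. With alpelisib they had 0.25 ± 0.30, 0.38 ± 0.33, 0.47 ± 0.38 and 0.28 ± 0.28, and no other G2/M gene but KIF2C (0.01 ± 0.23) was positive there. In these genes Vehicle 3 was the lowest vehicle library. Without it the combination changes of CDC20, UBE2C, BIRC5 and AURKB were -0.17, -0.46, -0.40 and -0.29, and the alpelisib changes 0.04, 0.00, 0.05 and 0.04. BIRC5 had 1631, 2100.2, 1457 and 2199 normalized counts in combination tumours and 1296, 2212, 3336 and 4054 in alpelisib tumours, against 2484, 2703, 756 and 2079 in vehicle tumours. UBE2C had 1008, 1264, 866 and 1258 in combination tumours and 921, 1287, 2044 and 2034 in alpelisib tumours, against 1502, 1802, 524 and 1224 in vehicle tumours.

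Vehicle 3 thus stood at both ends of its group: it was the highest vehicle library in 11 and the lowest in 10 of the 27 G2/M genes. The 25 ribosomal protein genes listed for comparison had a mean log2 value of -1.177 in Vehicle 3, against 0.34 to 0.477 in the other 3 vehicle libraries, relative to the vehicle mean. They averaged 1.04 ± 0.24 in combination, 0.99 ± 0.37 in alpelisib and 0.72 ± 0.36 in nintedanib tumours, and their part in the cell cycle values was not tested. Without Vehicle 3 the median changes of these ribosomal genes were 0.650, 0.583 and 0.328, against 1.125, 1.066 and 0.755 with it. Without Vehicle 3 the combination had 27 of 27 G2/M genes negative with a median of -0.54, 11 of them at an unadjusted p under 0.05, where 7.55% of all genes were lower. Groups did not overlap in 12 genes (44.4%, against 9.59% of all genes). Over all genes 0 passed in that fit, and AURKA had the smallest adjusted p of the members, 0.0533.

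**Figure D4:**
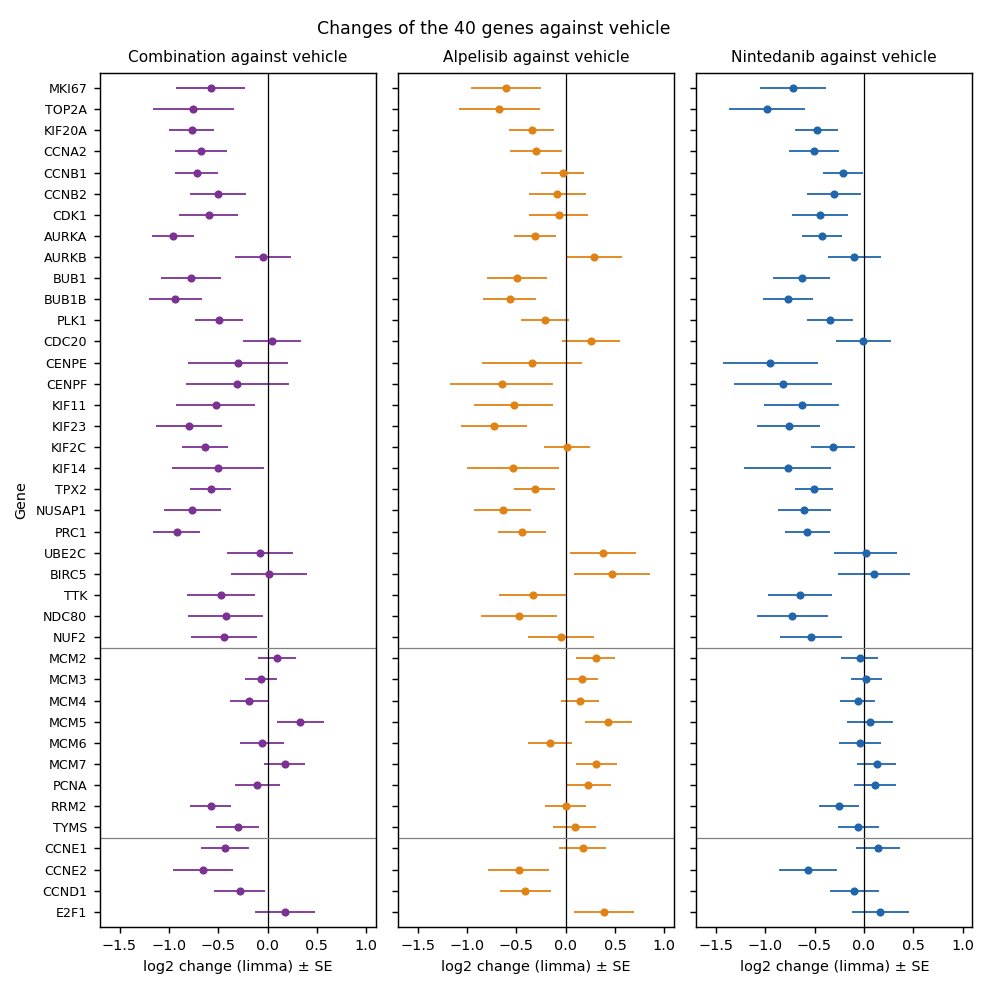
Points are log2 changes of each gene against vehicle from limma and bars their standard error, with the combination left, alpelisib in the middle and nintedanib right. Horizontal lines divide G2/M, S-phase and G1/S genes. With the combination 25 of 27 G2/M points lie left of 0, from -0.96 to 0.05, and the 9 S-phase points lie between -0.57 and 0.33.

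Among S-phase genes the combination gave 6 negative and 3 positive changes, and 1 gene, RRM2, was lower at an unadjusted p under 0.05 with groups that did not overlap. That is 11.1% of the 9, against 6.89% of all genes lower at that p and 5.31% with groups apart, so the count is no result about S-phase genes. RRM2 encodes the small subunit of ribonucleotide reductase, which makes deoxynucleotides. It had 1955, 1550.2, 1515 and 2033 normalized counts in combination tumours, 1702, 2409, 3166 and 3522 in alpelisib tumours and 2061, 2416, 1826, 2204 and 2489 in nintedanib tumours, against 2318, 2837, 2794 and 2499 in vehicle tumours. All combination values were below all vehicle values, with a change of -0.57 ± 0.21 (adjusted p = 0.172), whereas alpelisib gave 0.00 ± 0.21 (adjusted p = 0.997) with tumours on both sides of vehicle and nintedanib -0.25 ± 0.20 (adjusted p = 0.642). TYMS, the thymidylate synthase gene, had 434, 303, 319 and 307 normalized counts in combination tumours, 348, 392, 423 and 666 in alpelisib tumours and 352, 485, 353, 395 and 426 in nintedanib tumours, against 411, 514, 323 and 438 in vehicle tumours. Combination 1 stood above the other 3 combination tumours, and the changes were -0.30 ± 0.22 (adjusted p = 0.471), 0.09 ± 0.22 (adjusted p = 0.831) and -0.06 ± 0.21 (adjusted p = 0.915).

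The MCM genes encode the subunits of the replicative helicase ring. MCM2 had 1400.5, 1349, 1460.3 and 1345 normalized counts in combination tumours, 1441, 1322, 1550.3 and 2212 in alpelisib tumours and 929, 1655, 1144, 1201 and 1492 in nintedanib tumours, against 1371, 1382, 1274 and 1169.7 in vehicle tumours. The 4 combination values overlapped with vehicle, and the changes were 0.10 ± 0.19 (adjusted p = 0.814) with the combination, 0.30 ± 0.19 (adjusted p = 0.373) with alpelisib and -0.04 ± 0.18 (adjusted p = 0.933) with nintedanib. For the combination its 95% confidence interval was -0.31 to 0.51. For AURKA, the member with the smallest p in that comparison, it was -1.40 to -0.52. Neither interval is adjusted for the number of genes. MCM5 had 1093, 1282, 1234 and 1858 normalized counts in combination tumours, 1076, 1102, 1708 and 2095 in alpelisib tumours and 835, 1384, 905, 1133 and 1416 in nintedanib tumours, against 1135, 1239, 859 and 1056 in vehicle tumours. The high libraries were Combination 4, Alpelisib 3 and Alpelisib 4, and the changes were 0.33 ± 0.24 (adjusted p = 0.473), 0.43 ± 0.24 (adjusted p = 0.317) and 0.06 ± 0.23 (adjusted p = 0.920).

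MCM7 had 3731, 4601, 3344 and 4248 normalized counts in combination tumours, 3599, 3603, 4632 and 5899 in alpelisib tumours and 3613, 4096, 2998, 4092 and 4493 in nintedanib tumours, against 3852, 3996, 2496 and 3895 in vehicle tumours. Vehicle 3 was the lowest library of all, and the changes were 0.18 ± 0.21 (adjusted p = 0.677), 0.31 ± 0.21 (adjusted p = 0.392) and 0.13 ± 0.20 (adjusted p = 0.799). Changes of MCM3, MCM4 and MCM6 were -0.07 ± 0.16, -0.19 ± 0.19 and -0.06 ± 0.22 with the combination, 0.17 ± 0.16, 0.15 ± 0.19 and -0.16 ± 0.22 with alpelisib, and 0.03 ± 0.15, -0.06 ± 0.18 and -0.04 ± 0.21 with nintedanib. PCNA, the sliding clamp of DNA polymerases, had 3741, 3939.9, 3199 and 5019.6 normalized counts in combination tumours, 3048, 4886, 6075 and 6601 in alpelisib tumours and 4596, 3954, 4359, 5315 and 4699 in nintedanib tumours, against 4639, 4729.7, 3276 and 4410.4 in vehicle tumours. Alpelisib 1 held the lowest and Alpelisib 4 the highest value, all groups overlapped, and the changes were -0.11 ± 0.23 (adjusted p = 0.830), 0.23 ± 0.23 (adjusted p = 0.564) and 0.11 ± 0.22 (adjusted p = 0.839).

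The 4 regulators of entry into S phase had changes of both signs. CCNE2, a cyclin E gene, had 222, 155, 226 and 240.5 normalized counts in combination tumours, 175, 320.5, 239 and 228 in alpelisib tumours and 86.9, 279.9, 259.7, 321 and 258 in nintedanib tumours, against 265, 380, 373 and 307 in vehicle tumours. Combination tumours lay below vehicle with a change of -0.65 ± 0.31 (adjusted p = 0.268), and alpelisib gave -0.48 ± 0.31 (adjusted p = 0.372) and nintedanib -0.57 ± 0.29 (adjusted p = 0.619). The nintedanib change was -0.23 without responder 1, the lowest library. CCNE1, the other cyclin E gene, had -0.43 ± 0.24, 0.17 ± 0.24 and 0.14 ± 0.23 in that order. CCND1, the cyclin D gene that couples growth signals to the cycle, had 19265, 16196, 24372 and 15115 normalized counts in combination tumours, 26939.5, 15491, 12814 and 15039.6 in alpelisib tumours and 18764, 23985, 25506, 17342 and 20161 in nintedanib tumours, against 17196, 20195, 30059 and 23973 in vehicle tumours. Its groups overlapped, with changes of -0.28 ± 0.26 (adjusted p = 0.580), -0.41 ± 0.26 (adjusted p = 0.367) and -0.10 ± 0.25 (adjusted p = 0.882).

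E2F1, a transcription factor of S-phase genes, had 591, 749, 725 and 742 normalized counts in combination tumours, 649.8, 711, 846 and 1094 in alpelisib tumours and 566, 783, 502, 886 and 818 in nintedanib tumours, against 818, 993, 267 and 673 in vehicle tumours. Vehicle 3 held the lowest value, and the changes were 0.18 ± 0.30 (adjusted p = 0.785), 0.39 ± 0.30 (adjusted p = 0.464) and 0.17 ± 0.29 (adjusted p = 0.823). Without Vehicle 3 they were -0.23, -0.02 and -0.24, so that the sign of each depended on that library.

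Alpelisib against vehicle asks what inhibition of the alpha kinase alone did. Of the G2/M genes 22 of 27 were negative (81.5%, against 48.0% of all tested genes), and 3 (BUB1B, KIF23 and NUSAP1) were lower at an unadjusted p under 0.05 (11.1%, against 7.17%). In 0 of the 40 genes did all alpelisib tumours lie below vehicle, which 5.95% of all tested genes did. The G2/M median was -0.11 without Alpelisib 1, the library with the lowest G2/M mean in that group, against -0.33 with it, and the count of 3 was 0 without it, 0 without Vehicle 1 or Vehicle 2, and 1 without Vehicle 3, Alpelisib 3, Combination 3 or either non-responder. In the fit without Vehicle 3, 732 of 14511 genes were lower at that p. For the fits without another library the share of all genes was not counted. Of the S-phase genes 7 of 9 were positive, with changes from -0.16 to 0.43. Over all genes limma called 0 (0%) and left 2707 (18.6%) below an unadjusted p of 0.05. Of the members, edgeR and limma-voom called 0, as did DESeq2, which gave an adjusted p to 5 of the 40 and called 0.794% of 1008 genes lower.

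The effect of nintedanib alone was read against the same vehicle tumours. The G2/M genes were negative in 25 of 27 cases (92.6%, against 50.2% of all tested genes), and 10 were lower at an unadjusted p under 0.05 (37.0%, against 2.01%). BUB1B had the smallest p of the 10, and the others were TPX2, TOP2A, PRC1, KIF23, NUSAP1, KIF20A, BUB1, MKI67 and AURKA. In 0 of the 40 genes did all 5 nintedanib tumours lie below vehicle (0.509% of all tested genes did), and nintedanib responder 2 had the highest G2/M mean of the group, -0.03. The count of 10 was 18 without nintedanib responder 2, 2 without responder 1 and 1 without responder 3. It was 5 without Vehicle 1, 3 without Vehicle 2 and 5 without Vehicle 3, where 2.27% of all genes were lower. For the fits without another library the share of all genes was not counted. A shift of the G2/M count alone cannot be told there from a shift over all genes. Without Vehicle 3 all 27 changes were negative with a median of -0.50, and in 2 genes (7.41%, against 1.92% of all genes) all nintedanib tumours lay below vehicle. S-phase genes had changes from -0.25 to 0.13. The limma fit called 0 genes (0%), with 1035 (7.12%) below an unadjusted p of 0.05. Again 0 members passed by edgeR, limma-voom or DESeq2, the last giving an adjusted p to 5 of the 40.

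Between tumours called responders and non-responders, 26 of 27 G2/M and 9 of 9 S-phase genes had a negative change, with medians of -0.36 and -0.17, against 54.3% negative among all tested genes and a median of -0.03. NUF2, which anchors microtubules at kinetochores, had the smallest p. It had 132, 162 and 135 normalized counts in responders 1 to 3, against 315 and 253 in non-responders 1 and 2, with a change of -0.98 ± 0.43 (adjusted p = 0.999). CDK1 followed with -0.79 ± 0.39 (adjusted p = 0.999). By limma 0 members and 0 of all genes passed (0%), with 237 genes (1.63%) below an unadjusted p of 0.05. The 1 member among them, NUF2, was lower, as were 0.427% of all genes, and edgeR, limma-voom and DESeq2 called 0. Without responder 2 the G2/M median was -0.73 and without responder 1 it was -0.20.

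The combination against each drug alone asks what the second drug added. Against alpelisib, 21 of 27 G2/M genes were negative with a median of -0.28, and 8 of 9 S-phase genes with a median of -0.23, while 50.3% of all genes were negative and their median was 0.00. At an unadjusted p under 0.05, 3 G2/M genes (CCNB1, AURKA and KIF2C), RRM2 and CCNE1 were lower, where 3.17% of all genes were. CCNB1 had a change of -0.68 ± 0.22 (adjusted p = 0.943) and AURKA -0.65 ± 0.21 (adjusted p = 0.943). Alpelisib 1 lay below the highest combination tumour in both genes, so the groups overlapped. In 0 of the 40 genes did all combination tumours lie below all alpelisib tumours (1.55% of all genes did). Without Alpelisib 1 the G2/M median was -0.51, and without Alpelisib 4 it was -0.17.

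Against nintedanib, 16 of 27 G2/M and 6 of 9 S-phase genes were negative, with a median of -0.09 for each, against 48.7% of all genes, and 3 members were lower at an unadjusted p under 0.05, where 2.55% of all genes were. The G2/M median ran from -0.21 without nintedanib responder 3 to 0.03 without Combination 2, so its sign depended on 1 library. The 3 members were AURKA with -0.53 ± 0.20 (adjusted p = 0.988), CCNE1 with -0.57 ± 0.23 (adjusted p = 0.988) and CCNB1 with -0.50 ± 0.21 (adjusted p = 0.988). CCNB1 was the 1 member in which all combination tumours lay below all nintedanib tumours, which 0.908% of all genes did. CCNE1 had 128, 177, 118 and 132 normalized counts in combination tumours, against 259.7, 139, 193, 201 and 255 in nintedanib tumours. The limma fit called 0 genes in either comparison (0% in both), with 648 (4.46%) below an unadjusted p of 0.05 against alpelisib and 556 (3.83%) against nintedanib. By edgeR, limma-voom and DESeq2 0 members passed.

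Whether both drugs together differed from the sum of their single log2 changes was read as an interaction. Combination minus alpelisib, less the difference of nintedanib from vehicle, had a median of 0.15 over G2/M and -0.26 over S-phase genes, against -0.05 over all genes. CCNE1 had the smallest p, with -0.75 ± 0.33 (adjusted p = 0.662), followed by CENPF with 1.16 ± 0.72 (adjusted p = 0.662). Without Alpelisib 1 the G2/M median was -0.03 and without Alpelisib 3 it was 0.31. For this interaction limma called 0 genes (0%), with 995 (6.85%) below an unadjusted p of 0.05. CCNE1 was the 1 member among them, where 4.42% of all genes were lower, and edgeR, limma-voom and DESeq2 called 0.

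Further genes of the same processes were read from the same fit. Of 51 other mitotic genes, 45 were negative with the combination (88.2%, against 52.8% of all genes). With alpelisib 37 were negative (72.5%, against 48.0%) and with nintedanib 43 (84.3%, against 50.2%). Medians were -0.52, -0.18 and -0.39 with the combination, alpelisib and nintedanib. At an unadjusted p under 0.05, 20 were lower with the combination (39.2%, against 6.89% of all genes), 1 with alpelisib (1.96%, against 7.17%) and 18 with nintedanib (35.3%, against 2.01%). In the same order 1, 1 and 0 were higher (1.96%, 1.96% and 0%, against 11.2%, 11.5% and 5.11% of all genes), and limma called 0 of them over all genes. All treated tumours lay below vehicle in 11 of the 51 with the combination (21.6%, against 5.31% of all genes). That held for 0 with alpelisib (against 5.95%) and 2 with nintedanib (3.92%, against 0.509%). GTSE1, a microtubule-binding gene of G2, had -0.89 ± 0.23 (adjusted p = 0.0956) with the combination and -0.50 ± 0.21 (adjusted p = 0.619) with nintedanib. INCENP, the scaffold of the Aurora B complex, had -0.93 ± 0.24 (adjusted p = 0.0973) with the combination and -0.71 ± 0.23 (adjusted p = 0.619) with nintedanib, and RACGAP1, the partner of KIF23, -0.74 ± 0.20 (adjusted p = 0.103) with the combination. ECT2, which sets the cleavage furrow, had -0.71 ± 0.33 (adjusted p = 0.264) with alpelisib and -0.74 ± 0.31 (adjusted p = 0.619) with nintedanib. CKS1B, a subunit bound to cyclin-dependent kinases, was on the positive side with 0.77 ± 0.34 (adjusted p = 0.251) with alpelisib, as was CENPM, a centromere gene, with 0.98 ± 0.48 (adjusted p = 0.276).

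Of 48 other replication genes, 39 were negative with the combination (81.2%, against 52.8% of all genes). With alpelisib 16 were negative (33.3%, against 48.0%) and with nintedanib 33 (68.8%, against 50.2%). Medians were -0.14, 0.14 and -0.09 with the combination, alpelisib and nintedanib. At an unadjusted p under 0.05, 5 were lower with the combination (10.4%, against 6.89% of all genes), 0 with alpelisib (against 7.17%) and 1 with nintedanib (2.08%, against 2.01%). With alpelisib 4 were higher (8.33%, against 11.5% of all genes) and with the other treatments 0 (against 11.2% with the combination and 5.11% with nintedanib). By limma 0 of the 48 passed over all genes. With the combination, small p-values were those of GINS1, a subunit of the replicative helicase, with -0.64 ± 0.20 (adjusted p = 0.133), and of the origin recognition gene ORC6 with -0.67 ± 0.23 (adjusted p = 0.157). In both the combination tumours lay below vehicle, which held for 4 of the 48 genes (8.33%, against 5.31% of all tested genes). That count is near the share of all genes and is no result about replication genes. With alpelisib, small p-values were those of RPA3, a subunit of the single-strand binding protein, with 0.77 ± 0.25 (adjusted p = 0.210), DUT, which removes dUTP, with 0.59 ± 0.26 (adjusted p = 0.253), and GINS2 with 0.65 ± 0.30 (adjusted p = 0.261). With nintedanib E2F8, a repressor among the E2F factors, had -0.61 ± 0.24 (adjusted p = 0.619), RPA3 0.48 ± 0.24 (adjusted p = 0.619) and MCM8, a helicase of DNA repair, -0.64 ± 0.34 (adjusted p = 0.619).

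Of 23 genes of G1 phase and arrest, 22 were tested, CCND2 falling below the filter. Changes were positive in 12 and negative in 10 with the combination (median 0.10). The counts were 15 and 7 with alpelisib (median 0.28) and 14 and 8 with nintedanib (median 0.10). At an unadjusted p under 0.05, 7 were higher with the combination (31.8%, against 11.2% of all tested genes) and 3 lower (13.6%, against 6.89%). With alpelisib 6 were higher (27.3%, against 11.5%) and 2 lower (9.09%, against 7.17%). With nintedanib 0 were higher and 0 lower, against 5.11% and 2.01% of all genes. CDKN1A, the p21 inhibitor of cyclin-dependent kinases, averaged 11390 ± 3508 normalized counts in combination, 8642 ± 3805 in alpelisib and 9225 ± 4556 in nintedanib tumours, against 5578 ± 1856 in vehicle tumours (SD). All combination tumours were above vehicle, with a change of 1.03 ± 0.34 (adjusted p = 0.146), and nintedanib gave 0.65 ± 0.32 (adjusted p = 0.619). Combination tumours lay above vehicle in 2 of the 22 genes and in 766 of all 14533. CCND3, a cyclin D gene, had 0.73 ± 0.23 (adjusted p = 0.138) with the combination, 0.64 ± 0.23 (adjusted p = 0.221) with alpelisib and 0.46 ± 0.22 (adjusted p = 0.619) with nintedanib, and CDKN1C, the p57 inhibitor, 1.09 ± 0.38 (adjusted p = 0.216) with alpelisib. E2F5, an E2F factor of resting cells, had -0.63 ± 0.21 (adjusted p = 0.144) with the combination and -0.80 ± 0.21 (adjusted p = 0.209) with alpelisib, and in both the treated tumours lay below vehicle. That held for 1 of the 22 genes with the combination (4.55%, against 5.31% of all genes) and 3 with alpelisib (13.6%, against 5.95%). CCNG2, a cyclin gene linked to arrest, had -0.45 ± 0.23 (adjusted p = 0.619) with nintedanib, and all 5 tumours lay below vehicle. With nintedanib that held for 1 of the 22 genes (4.55%, against 0.509% of all genes).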

How the data were processed

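Per the labels' protocols, polyA RNA of each tumour was made into TruSeq RNA v2 libraries and sequenced as 75-bp paired-end reads. Bowtie, TopHat, DESeq2 and the builds hg19 and mm10 are named, without versions, in the submitters' processing notes. Per the series' design text, reads were mapped to the human and mouse genomes separately. The read counter, gene annotation and strand setting are not given in the sources used here. Human and mouse tables as deposited hold a signal per gene, normalized counts that the authors obtained by scaling reads per library. Human values were whole multiples of 1 step per library (100% within 0.001 of a whole number), and recovered reads entered the count tests.

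The log2 of each value plus a pseudocount of 1 was modelled by limma-trend (limma 3.58.1, R 4.3.3) with a mean for each of 5 title groups over the human genes with a mean of at least 10, and p-values were adjusted over those 14533 genes. A library's depth sets its precision, and intervals cover the spread between libraries. Members were read out of that fit, and lists were described by counts and medians with no list test. The members and lists were chosen with earlier results of these data known. Values in every library were given for 13 members chosen by role and for the 4 G2/M and 2 S-phase genes with the smallest p per treatment. In other comparisons the 2 members with the smallest p were given, and up to 3 genes of each further list, of which 1 is not reported here. BIRC5, UBE2C and other members were added after their values were seen. Alternatives were TMM scaling, pseudocounts of 0.5 and 5, no filter and a minimum of 50, edgeR 4.0.16, DESeq2 1.42.0 and limma-voom on recovered reads, a replicate block, fits on the compared groups and leaving out each library. All tools were run on simulated counts in which genes were drawn independently with the same spread. That run does not bear on why the tools differed in these data. No sequences or coordinates were used here.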

Additional observations from a re-analysis of the deposited data

Results flagged for a closer look

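In groups of 4 tumours, 78 sets of values were examined for a tumour far from the other 3 (a gap above 0.829 of the range), and 3 stood out, where chance flags about 1 in 20. E2F1 had 591 normalized counts in Combination 1, against 725 to 749 in the other combination tumours. TYMS had 434 in Combination 1, against 303 to 319 in the other 3. MCM7 had 2496 in Vehicle 3, the library with the fewest human reads, against 3852 to 3996 in the other vehicle tumours.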

How the results depend on the processing

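Over 27 alternatives, the G2/M median stayed below the S-phase median in each contrast with vehicle: it ran from -0.682 to -0.473 for the combination, from -0.447 to -0.114 for alpelisib and from -0.645 to -0.417 for nintedanib, against -0.121 to -0.007, 0.055 to 0.237 and -0.13 to 0.066 for S phase. The count of human genes called for the combination was less stable. It was 52, and became 0 with no filter, 34 with a minimum of 50, 496 by DESeq2 and 7 in the fit on the compared groups, and 0 to 97 when single libraries were left out. It was 0 without any of Combination 2, 3 and 4 and Vehicle 1, 2 and 3, 97 without Combination 1, 81 without nintedanib responder 1, 88 without responder 3, and 10 to 26 without 1 alpelisib tumour. Members called for the combination were 4 by DESeq2 and 0 to 1 without single libraries. G2/M genes lower at an unadjusted p under 0.05, a count added after the data were seen, ranged without single libraries from 7 (without Combination 2) to 13 for the combination, 0 to 4 for alpelisib and 1 to 18 for nintedanib. Among these fits, the share of all genes lower was counted only without Vehicle 3. DESeq2 called 173 genes for alpelisib and 13 for nintedanib, in each case out of only 1008 genes given an adjusted p. For the combination against nintedanib it called 1 of 14528. By limma 0 to 1 genes were called for nintedanib without single libraries. The cause of these differences was not tested.

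Libraries sharing a replicate number across treatments had deviations correlated above 0.1 in 7 of 27 cases, and those with other numbers in 30 of 81, so the numbers were not used as pairs. With replicate number as a block, 29 genes were called for the combination, and the G2/M count at an unadjusted p under 0.05 was 0 for alpelisib and 4 for nintedanib. The G2/M count for the combination in that fit is not reported here, and the share of all genes lower was not counted. Of 1537 recomputed changes of named members, 1530 kept their side of the threshold and any sign larger than the standard error. As 0 members passed in the main fit, this count says little about how far a change moved. The combination change of MKI67, -0.58 in the main fit and -0.21 without Vehicle 3, counted as kept. The change of E2F1 with alpelisib was -0.016 to 0.615 without single libraries, lowest without Vehicle 3. Sign turns of changes smaller than their standard error were 18. Passing in an alternative alone were AURKA (3 settings), BUB1B, CCNB1 and PRC1. TMM scaling moved the median of all genes by less than 0.1. Genes of the lists with few reads, such as NUF2, are measured least precisely in Vehicle 3, the shallowest library.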

Other observations

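Genes of the same names were also read from the mouse table, which holds reads mapped to the mouse genome and was scaled separately. Of the 27 G2/M genes 25 were tested there, and all 25 were negative with the combination (median -1.24) and with nintedanib (median -1.06), against 22 with alpelisib (median -0.50). Over all 11831 mouse genes tested the medians were -0.02, 0.02 and 0.01 in that order. With the combination Kif20a, Ccna2, Ccnb1 and Prc1 fell, where 0.38% of 11831 mouse genes were called lower, and with nintedanib Kif20a, Kif23 and Prc1 fell (0.144% called lower). Prc1 averaged 24.5 ± 9.14 normalized counts in combination (n = 4), 55.7 ± 12.2 in alpelisib (n = 4) and 26.7 ± 6.77 in nintedanib tumours (n = 5), against 81.4 ± 11.7 in vehicle tumours (SD, n = 4), and fell by 1.74 ± 0.26 with the combination (limma adjusted p = 0.00739) and by 1.59 ± 0.25 with nintedanib (adjusted p = 0.0113). Median changes of the 9 S-phase genes were -0.46, -0.05 and -0.15 with the combination, alpelisib and nintedanib. The alternatives above, leaving out of libraries included, were run on the human table only. Rn45s and Lars2 took from 1.73% (nintedanib responder 2) to 72.9% (Vehicle 3) of the mouse values, and their part in these changes was not tested. How many of the reads of these genes came from tumour cells was not tested.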
